A study of Homo sapiens with 9 samples.

Results

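Full-length OGDHL was compared with eGFP in 16D prostate cancer cells, a castration-resistant line, after knockout of OGDHL. The comparison rests on 6 of the 9 libraries of the series, 3 per group. It covers 13231 of the 36650 genes in the table, those whose TPM (transcripts per 1000000) reached 1 in 3 or more of the 9 libraries. Each cell population had received lentivirus with Cas9 and a guide RNA against OGDHL, had been kept for 6 weeks in an androgen receptor pathway inhibitor, and was held at 10 µM enzalutamide, an antiandrogen, in RPMI medium with serum. The control group then received lentivirus for eGFP, an inert fluorescent protein. The rescue group received lentivirus for a full-length OGDHL that the guide cannot cut. Unedited cells are not part of the series, so a rescue is read against knockout cells only. The labels do not say if replicates came from separate cultures or transductions, so p-values reflect only how far these libraries vary, which may be technical.

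OGDHL encodes a paralog of OGDH, the E1 subunit of the 2-oxoglutarate dehydrogenase complex. This mitochondrial complex turns 2-oxoglutarate into succinyl-CoA in the tricarboxylic acid cycle, with the E2 subunit DLST and the shared E3 subunit DLD. Its substrate links the cycle to glutamate and is also used by dioxygenases that act on chromatin and on the hypoxia pathway.

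The 6 libraries had an estimated depth of 86.3 to 120.5 M reads (M, 1000000), and their log2 values correlated with each other across genes at 0.990 to 0.997. The 37 mitochondrially encoded genes took 19.1% to 22.5% of the estimated reads with eGFP and 19.2% to 21.0% with full-length OGDHL. Their share of TPM, 62.1% to 66.0% over the 6 libraries, is inflated because the deposited values divide by genomic span and these genes have no introns. Markers of the labelled cell type were present: 15 of 16 luminal prostate markers reached 1 TPM, led by KLK3, against 0 of 8 basal and 0 of 7 leukocyte markers and 1 of 10 fibroblast markers (COL1A1, at most 3.13 TPM). Of 16 neuroendocrine markers 6 reached 1 TPM, led by ENO2. Division by genomic span makes 1 TPM harder to reach for genes with long introns. These counts therefore do not show that a marker was absent. The summed luminal markers were at 2826 to 3080.3 TPM with eGFP and at 2828 to 3044 TPM with full-length OGDHL.

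OGDHL (ENSG00000197444, chromosome 10, minus strand, 49734641 to 49762379 in GRCh38) stood at 1.26, 1.18 and 1.12 TPM in eGFP replicates 1, 2 and 3. With the full-length form it stood at 219.7, 165 and 270.5 TPM. All 3 full-length libraries lay far above all 3 eGFP libraries, and the groups were well apart. The means were 1.19 ± 0.0715 and 218 ± 52.8 TPM (SD, n = 3 each), a ratio of 184. OGDHL rose by 6.62 on the log2(TPM + 1) scale (SE 0.16, limma with Benjamini-Hochberg adjustment over all 13231 genes, adjusted p = 2.76e-05). The exact permutation p over the 6 libraries was 0.1, the smallest that 3 against 3 allow. The value sums reads of the transgene and of the edited gene. In bulk RNA, more cells with the transgene and more transgene RNA per cell cannot be told apart.

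Around this large increase the rest of the transcriptome differed little. OGDHL was the 1 gene called as deposited at an adjusted p under 0.05, 0.00756% of the genes tested. The median log2 difference over all genes was 0.00, the middle 50% of genes lay between -0.05 and 0.06, and 13171 of 13231 genes lay within 0.5 of 0 in either direction. At an unadjusted p under 0.05, 178 genes were higher (1.35%) and 575 lower (4.35%) with full-length OGDHL as deposited. This balance moved with single libraries. Without eGFP replicate 1 there were 496 higher and 368 lower, and the lower count was 267 without eGFP replicate 2, 998 without eGFP replicate 3 and 299 without full-length replicate 1.

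Libraries of 1 group differed by a common factor: relative to the 6-library mean, the median gene stood at a log2 ratio from -0.11 in eGFP replicate 3 to 0.09 in eGFP replicate 1. Each library was therefore also rescaled to a median of 0. After rescaling, 2 genes were called (0.0151%), OGDHL and IGFBP3. At an unadjusted p under 0.05 there were then 593 genes higher (4.48%) and 736 lower (5.56%). These counts were 353 and 443 without eGFP replicate 2 and 349 and 469 without eGFP replicate 3, and the lower count was 467 without full-length replicate 1. They rose to 654 and 1003 without eGFP replicate 1 and to 828 and 879 without full-length replicate 2. The rescaled values of the groups did not overlap for 1161 genes that were higher (8.77%) and 1208 that were lower (9.13%). Gene lists below are read against these shares, which themselves move with single libraries, and differences and counts are rescaled unless another scale is named.

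**Figure D1:**
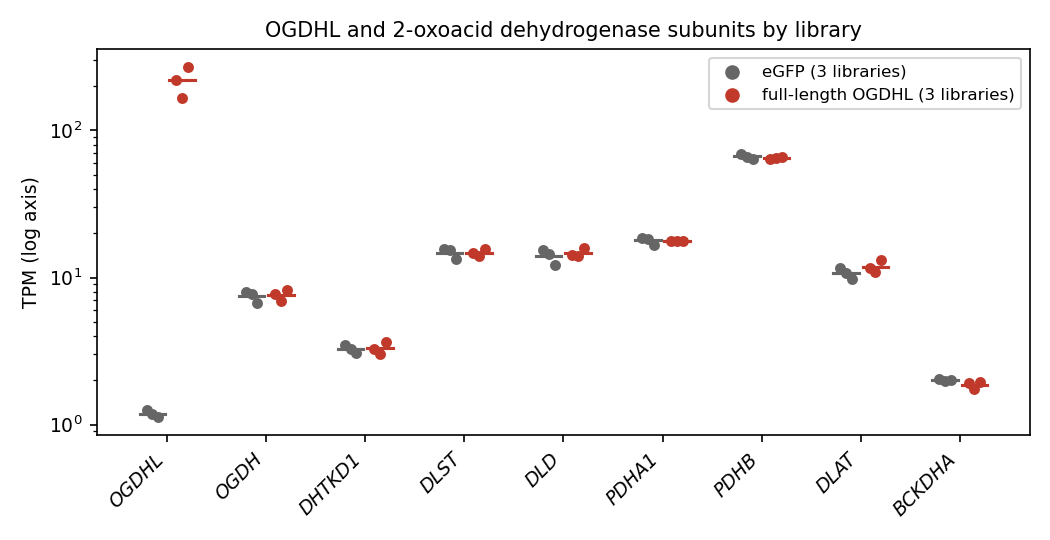
TPM (log axis) of OGDHL and 8 subunits of the 2-oxoacid dehydrogenase complexes in each of the 6 libraries, as deposited; points are libraries and bars are group means. OGDHL went from a mean of 1.19 to 218 TPM, while for the other genes plotted the means of the groups lay close together.

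The partners and relatives of OGDHL did not pass the test. OGDH, the main E1 subunit, was at 8.04, 7.73 and 6.75 TPM with eGFP and at 7.74, 6.91 and 8.22 TPM with full-length OGDHL, and the groups overlapped. Its difference was 0.02 (SE 0.04). DLST differed by -0.00 (SE 0.03), DLD by 0.06 (SE 0.05), and DHTKD1, the E1 paralog of lysine and tryptophan breakdown, by 0.01 (SE 0.04). Among the 18 tested genes of the 2-oxoacid dehydrogenase complexes, 2 had an unadjusted p under 0.05 and were higher, and 1 was lower, with a median difference of 0.01. Besides OGDHL these were DLAT, the E2 subunit of pyruvate dehydrogenase (0.13), and BCKDK, the kinase that switches off branched-chain 2-oxoacid dehydrogenase (-0.12).

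The enzymes on either side of 2-oxoglutarate were as close. Of 20 TCA cycle genes 1 was higher (SDHD, 0.08) and 1 lower (SDHC, -0.07) at an unadjusted p under 0.05, with a median of -0.01. Both encode membrane anchors of succinate dehydrogenase. Of 22 glutamate and transaminase genes 2 were higher and 1 lower, with a median of -0.00. The higher ones were PSAT1, the transaminase of serine synthesis (0.16), and SLC7A11, the cystine-glutamate exchanger (0.24). Of 33 tested dioxygenases that use 2-oxoglutarate, 1 was higher, the aspartate hydroxylase ASPH (0.15).

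Lists of mitochondrial genes around the complex also had small median differences, which does not show that they were level. The 13 mitochondrially encoded mRNAs held 0 genes at an unadjusted p under 0.05, with a median of 0.02. Of 80 nuclear-encoded respiratory chain genes, 61 were lower and 19 higher whatever their p, with a median of -0.03, and 3 were higher and 1 lower at an unadjusted p under 0.05 (12 lower without full-length replicate 2). CYCS, which encodes cytochrome c, was at 142, 138 and 122 TPM with eGFP and at 146, 148 and 158 TPM with full-length OGDHL. Its groups did not overlap, and its difference was 0.17 (SE 0.03, limma adjusted p = 0.250). The complex I subunit gene NDUFA5 differed by 0.16. Among 76 mitochondrial ribosomal protein genes 52 were lower and 24 higher whatever their p, with a median of -0.02. Among 30 genes of mitochondrial chaperones, proteases and import the median was 0.01.

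IGFBP3 (ENSG00000146674, chromosome 7, minus strand, 45912245 to 45921874) showed the lowest log2 difference among the genes that the naming rule selected. It encodes a secreted protein that binds insulin-like growth factors and limits their access to the receptor. Its level was 89.9, 85.5 and 72.5 TPM with eGFP, against 49.3, 47.6 and 52.97 TPM with full-length OGDHL. All 3 full-length libraries lay below all 3 eGFP libraries, and the lowest eGFP value was that of replicate 3. The means were 82.7 ± 9.05 and 49.9 ± 2.75 TPM (SD, n = 3 each). IGFBP3 fell by 0.71 after rescaling (SE 0.04, limma adjusted p = 0.0127). As deposited the difference was also -0.71 but the adjusted p was 0.230. In 29 settings, the deposited scale included, the difference ran from -0.80 to -0.65 and the adjusted p from 0.000119 to 1, and 5 settings called it. The rescaled call depended on single libraries. Without eGFP replicate 1 or 2 the rescaled adjusted p was 0.0945 or 0.151, without full-length replicate 1, 2 or 3 it was 0.128, 0.0734 or 0.111, and without eGFP replicate 3 it was 0.0138. The other tested genes of the insulin-like growth factor axis included IGFBP2, at -0.09, and the list of 5 had 1 gene lower at an unadjusted p under 0.05 and 0 higher.

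The 4 ID genes, which encode helix-loop-helix factors that block DNA binding by their partners and are classic targets of BMP signalling, were all lower in the full-length group after rescaling, and none was called. ID1 was at 99.4, 101 and 98.6 TPM with eGFP and at 78.9, 76.7 and 75.3 TPM with full-length OGDHL. ID3 was at 148, 153 and 141 TPM against 109, 111 and 117 TPM. For both genes every full-length library lay below every eGFP library, by more than the spread within either group. The differences were -0.37 for ID1 (SE 0.06, limma adjusted p = 0.211), -0.31 for ID2 (SE 0.03, adjusted p = 0.0748), -0.39 for ID3 (SE 0.04, adjusted p = 0.0900) and -0.17 for ID4 (SE 0.05, adjusted p = 0.433). ID1 was called only with no filter on low values, and ID2 and ID3 only by limma-voom on estimated reads. Over the 9 tested BMP and TGF-beta targets, 5 were lower and 0 higher at an unadjusted p under 0.05, with a median of -0.12. As deposited 3 were lower, and after rescaling 3 were when either eGFP replicate 2 or full-length replicate 1 was omitted. The fifth was PMEPA1, at -0.09.

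Feedback genes of receptor tyrosine kinase and MAPK signalling leaned the same way. SPRY4, an inhibitor that this signalling induces, was at 5.61, 5.29 and 4.47 TPM with eGFP and at 3.63, 3.68 and 3.89 TPM with full-length OGDHL. DUSP2, a nuclear phosphatase of MAP kinases, was at 17.7, 17.8 and 16.2 TPM against 12.8, 11.4 and 13.4 TPM. The groups overlapped for neither gene. SPRY4 differed by -0.37 (SE 0.04) and DUSP2 by -0.43 (SE 0.05), each with a limma adjusted p of 0.0900. Of the 24 tested immediate-early and MAPK feedback genes, 8 were lower and 1 higher at an unadjusted p under 0.05, with a median of -0.04. One of the lower genes, the AP-1 gene FOS, reached 1 TPM in the eGFP libraries (1.33, 1.12 and 1.19 TPM) but not in the full-length ones (0.930, 0.895 and 0.886 TPM). It passed the filter through its higher group and counts for nothing here. Of the other 23 genes 7 were lower. These included the AP-1 genes JUNB (-0.23) and JUN (-0.11) and the matricellular gene CCN1 (-0.19). The higher one was DUSP4 (0.14), another MAP kinase phosphatase.

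CDKN1A, the cell cycle inhibitor p21 and a classic p53 target, was at 53.3, 53.4 and 49.96 TPM with eGFP. It was at 40.2, 38.8 and 42.5 TPM with full-length OGDHL, so all 3 full-length libraries were lower. The difference was -0.36 (SE 0.04, limma adjusted p = 0.0748), and over 29 settings the adjusted p ran from 0.0107 to 1. Of 25 tested p53 targets, 6 were lower and 0 higher at an unadjusted p under 0.05, with a median of -0.04. As deposited 4 were lower, and after rescaling 3 were lower without full-length replicate 1. The other members were BTG2 (-0.18) and PHLDA3 (-0.17), which restrain growth, the apoptosis effector BAX (-0.15), the kinase PLK2 (-0.15) and TP53I3 (-0.12).

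Genes of G2 and mitosis tended to be higher by a small amount. Of 39 tested, 37 were higher whatever their p, 10 were higher at an unadjusted p under 0.05 and 0 lower, with a median of 0.08. As deposited 0 passed that level in either direction. With 1 library left out, the rescaled count rested most on the controls: it was 16 when eGFP replicate 1 was omitted, 6 when replicate 2 was and 3 when replicate 3 was. Omitting full-length replicate 1 gave 5. CCNB1, the mitotic cyclin, was at 60.6, 57.4 and 52.6 TPM with eGFP and at 60.3, 61.5 and 63.7 TPM with full-length OGDHL. As deposited the groups overlapped through eGFP replicate 1, and after rescaling they did not. Its difference was 0.12 (SE 0.03, limma adjusted p = 0.346), beside 0.16 for the spindle checkpoint gene MAD2L1 and 0.17 each for HMMR and the kinetochore motor gene CENPE. The proliferation marker MKI67 differed by 0.09 (SE 0.10), and its groups overlapped. Of 42 DNA replication genes, 6 were higher and 0 lower after rescaling and 0 in either direction as deposited, with a median of 0.01, among them the GINS complex gene GINS1 (0.12).

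**Figure D2:**
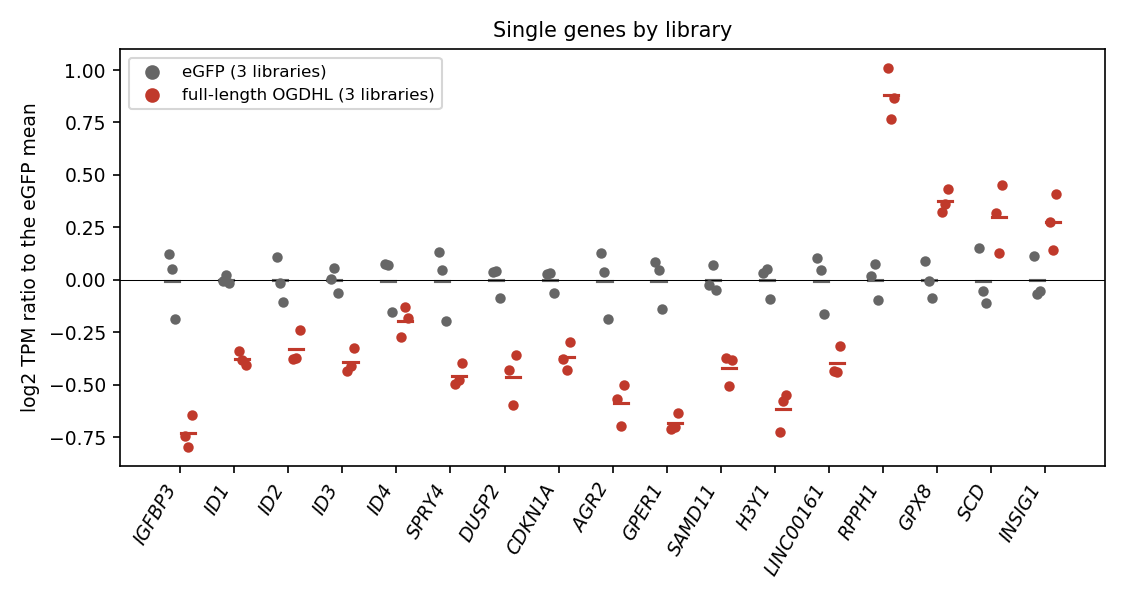
Log2 ratio of TPM to the eGFP mean for 17 genes, as deposited, with 1 point per library and a bar at the group mean. IGFBP3, the ID genes and the genes to their right up to LINC00161 have full-length points below all eGFP points, except ID4, whose points overlap, and RPPH1, with values from 7.10 to 8.41 TPM against 3.91 to 4.40 TPM, sits above them. Within this comparison GPER1 reached 1 TPM only with eGFP.

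The chaperones and folding enzymes of the endoplasmic reticulum were the list with the highest share of small p-values on the higher side. When unfolded protein builds up in this compartment, the sensors ATF6, IRE1 (ERN1) and PERK raise the expression of such genes, in part through ER stress elements in their promoters. Of 26 listed genes 25 were tested. At an unadjusted p under 0.05, 12 were higher and 0 lower after rescaling, and 3 higher and 0 lower as deposited, with a median of 0.10 on either scale. Omitting either eGFP replicate 2 or full-length replicate 1 left 7 higher after rescaling. None was called.

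The promoter sequences are shown for the members whose RefSeq promoter holds this element, since most members of the list were higher. The motif searched was CCAAT, then any 9 bases, then CCACG, on both strands, in windows from 250 bases before to 50 after each start in GRCh38.p14. It was found in 10 of 31 promoters of the listed genes (32.3%) and in 27 of all 35116 promoters (0.0769%). The element is known from promoters of such genes, so these shares describe the choice of list and not these libraries. The matches belonged to 8 of 25 genes with a promoter. The one at ERO1B is not shown because with its flanks it ran past the start or the edge of the window. ERO1B also did not pass the expression filter. Each sequence reads 5′ to 3′ along the gene's own strand, with the motif in capitals and 10 bases on either side in lower case.
HSPA5 (chr9:125241381-125241419, minus strand): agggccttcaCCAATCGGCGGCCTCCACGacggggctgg
HSP90B1 (chr12:103930206-103930244, plus strand): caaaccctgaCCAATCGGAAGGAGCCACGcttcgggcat
HSP90B1, motif on the opposite strand (chr12:103930311-103930349, plus strand): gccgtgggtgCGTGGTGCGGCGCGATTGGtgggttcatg
PDIA6 (chr2:10812843-10812881, minus strand): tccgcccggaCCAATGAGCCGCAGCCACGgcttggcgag
CANX (chr5:179698768-179698806, plus strand): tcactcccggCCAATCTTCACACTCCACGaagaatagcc
XBP1 (chr22:28800593-28800631, minus strand): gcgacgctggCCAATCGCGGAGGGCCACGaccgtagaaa
CALR, motif on the opposite strand (chr19:12938374-12938412, plus strand): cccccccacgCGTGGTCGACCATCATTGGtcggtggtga
CRELD2, motif on the opposite strand (chr22:49918544-49918582, plus strand): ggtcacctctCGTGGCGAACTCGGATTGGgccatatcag
A match describes letters in these windows and does not show that a factor was bound.

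HSPA5, the central chaperone BiP, was at 1361, 1251 and 1129 TPM with eGFP and at 1365, 1349 and 1409 TPM with full-length OGDHL. HSP90B1, the chaperone GRP94, was at 514, 458 and 407 TPM against 526, 515 and 554 TPM. In both genes eGFP replicate 1 was the highest control, and for HSPA5 it overlapped the full-length group as deposited. After rescaling the groups were apart, with differences of 0.14 (SE 0.03) for HSPA5 and 0.21 (SE 0.04, limma adjusted p = 0.3001) for HSP90B1. The other genes with a printed match differed by 0.16 (CANX, a lectin chaperone), 0.13 (PDIA6, a disulfide isomerase), 0.08 (XBP1, a factor of the response), 0.05 (CALR, a lectin chaperone) and 0.05 (CRELD2). Genes outside that set differed by similar amounts, such as the disulfide isomerase PDIA4 (0.17), the Hsp40 gene DNAJB9 (0.21) and HERPUD1, which takes part in disposal of misfolded protein (0.15). The list's median deviation from the 6-library mean was -0.03, -0.04 and -0.07 in the eGFP libraries and 0.04, 0.05 and 0.05 in the full-length libraries.

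**Figure D3:**
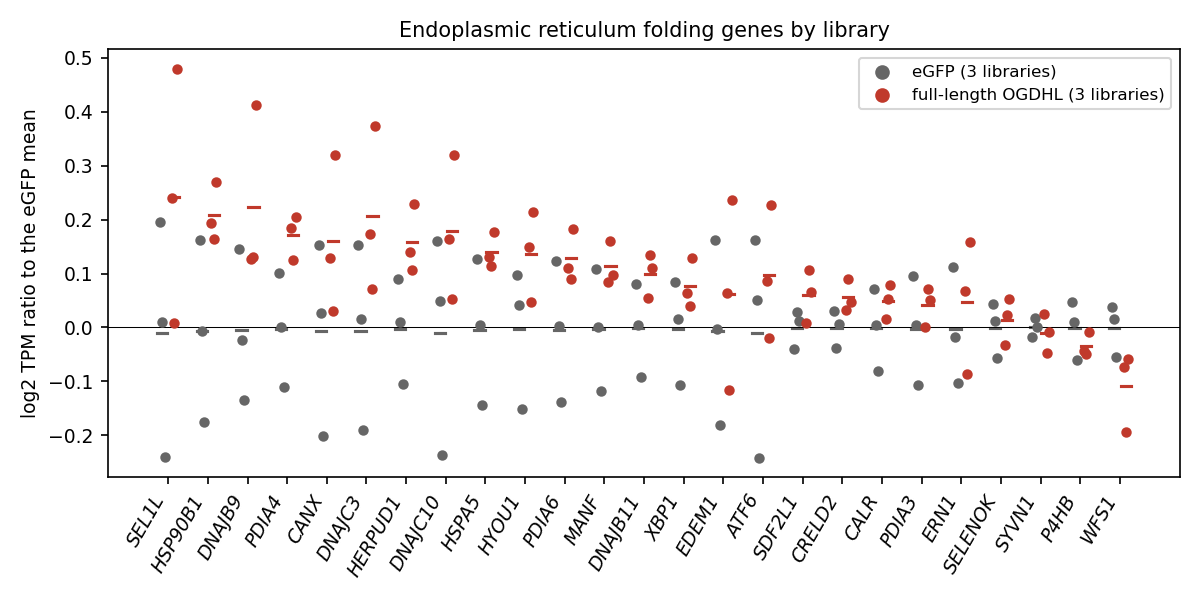
Log2 ratio of TPM to the eGFP mean, as deposited, for the 25 tested genes of the endoplasmic reticulum list, with 1 point per library and a bar at the group mean. Most full-length means lie above the eGFP mean by less than 0.30, while the eGFP points, with replicate 1 highest for 23 genes and replicate 3 lowest for 22, overlap many of them before rescaling.

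Targets of ATF4, the factor of the integrated stress response, held 5 genes higher and 0 lower of 25 after rescaling and 0 in either direction as deposited, with a median of 0.05. The rescaled count was 3 without eGFP replicate 2, eGFP replicate 3 or full-length replicate 1. PSAT1 was at 16.7, 15.8 and 14.1 TPM with eGFP and at 17.7, 16.7 and 18.3 TPM with full-length OGDHL, and its groups touched only as deposited. MTHFD2 of mitochondrial folate metabolism (0.15), CEBPG (0.13) and the tRNA exporter gene XPOT (0.17) were the other members beside SLC7A11. Other well-known targets of the list were closer to 0, such as ASNS at 0.08 and DDIT4 at 0.01. Of 20 aminoacyl-tRNA synthetase genes, 1 was higher (NARS1, 0.09), with a median of 0.04.

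Genes of lipid synthesis and oxidation were described as 2 lists, of which the cholesterol list had more genes on the higher side and the fatty acid list was mixed. SCD, the desaturase that makes oleate, was at 151, 131 and 126 TPM with eGFP and at 169.9, 149 and 186 TPM with full-length OGDHL. INSIG1, a sterol-regulated brake on SREBP processing, was at 42.3, 37.3 and 37.7 TPM against 47.3, 43.2 and 52.0 TPM. The groups of SCD overlapped as deposited through eGFP replicate 1 and full-length replicate 2, and those of INSIG1 did not. The differences were 0.30 for SCD (SE 0.07, limma adjusted p = 0.335) and 0.27 for INSIG1 (SE 0.06, adjusted p = 0.319). FADS2, another desaturase, differed by 0.23, the acyl-CoA synthetases ACSL1 and ACSL3 by 0.24 and 0.23, and the fatty acid synthase FASN by 0.19. Of 24 fatty acid genes 14 had a positive and 10 a negative difference, with a median of 0.02, and 12 and 12 after the GC correction, with a median of -0.00. At an unadjusted p under 0.05, 7 were higher and 3 lower, and 3 and 2 as deposited. The higher count was 4 without full-length replicate 1 or 3. The lower ones were ELOVL1 (-0.14) and the oxidation genes ACADVL (-0.13) and HADHB (-0.07). Of 24 cholesterol synthesis genes 20 had a positive difference, with a median of 0.06, and 6 were higher and 1 lower at an unadjusted p under 0.05. As deposited it was 1 in each direction, and the rescaled higher count was 2 without eGFP replicate 2 and 3 without full-length replicate 3. The lower one was the sterol reductase gene TM7SF2 (-0.22).

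Androgen-responsive genes went in both directions. Of 34 tested, 4 were higher and 3 lower at an unadjusted p under 0.05, with a median of 0.01. KLK2, a kallikrein under androgen control, was at 25.5, 23.2 and 22.6 TPM with eGFP and at 21.3, 20.3 and 20.6 TPM with full-length OGDHL, a difference of -0.19 (SE 0.04, limma adjusted p = 0.333) with no overlap. KLK3, which encodes prostate-specific antigen, differed by -0.09 (SE 0.05), TMPRSS2 by -0.05 (SE 0.03) and FKBP5 by 0.07 (SE 0.04). Among the enzymes that glucuronidate androgens, UGT2B15 differed by 0.18 and UGT2B17 by 0.10, the 2 of 7 tested steroid enzyme genes with an unadjusted p under 0.05. These are near-identical copies, so the split of reads between them is uncertain.

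Luminal identity genes were present in every library, with 1 higher and 3 lower of 15 tested at an unadjusted p under 0.05. The transcription factor gene GATA2 was at 53.4, 52.5 and 49.3 TPM with eGFP and at 44.0, 42.9 and 46.8 TPM with full-length OGDHL, a difference of -0.21 (SE 0.03, limma adjusted p = 0.174) with no overlap. The keratin genes KRT19 (-0.25) and KRT8 (-0.12) were the other lower members, and the adhesion gene EPCAM (0.09) the higher one. The 5 tested neuroendocrine markers went in both directions, 3 positive and 2 negative, with a median of 0.01. CARTPT, a neuropeptide gene, differed by -0.29 and ENO2 by -0.08. HES6, a helix-loop-helix factor gene, was at 3.81, 4.08 and 4.34 TPM with eGFP and at 4.69, 4.76 and 4.66 TPM with full-length OGDHL, a difference of 0.17 (SE 0.08, limma adjusted p = 0.543). Its groups did not overlap as deposited but overlapped after rescaling, and the difference was 0.24 after the GC correction. ONECUT2 differed by 0.03.

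Of the remaining lists, 27 redox genes held 2 higher and 4 lower. GPX8, a peroxidase of the endoplasmic reticulum, was at 4.21, 3.95 and 3.73 TPM with eGFP and at 4.96, 5.10 and 5.36 TPM with full-length OGDHL, with no overlap. It differed by 0.31 (SE 0.03, limma adjusted p = 0.0748). The cytosolic GPX1 (-0.19) and the ferritin gene FTL (-0.17) lay on the lower side. Cytosolic ribosomal proteins (78 genes) and proteasome subunits (31) held 0 genes at an unadjusted p under 0.05, with medians of -0.04 and -0.03. Whatever their p, 70 of the ribosomal protein genes were lower and 8 higher, and 18 of the proteasome genes were lower and 13 higher. Metallothionein and zinc transporter genes (13) also held 0. Cytosolic heat shock genes held 1 of 21 (HSF1, -0.09). Interferon and MHC class I genes held 1 higher and 1 lower of 15 (TAP2 and HLA-B), glycolysis and hypoxia genes 3 higher of 26, nucleotide synthesis genes 3 higher of 28, and ribosome biogenesis genes 4 higher of 37. For these last 3 lists the count as deposited was 0, and with 1 library left out the rescaled higher counts ran from 1 to 3, 2 to 4 and 0 to 4. Of the redox genes 2 to 7 were then lower.

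**Figure D4:**
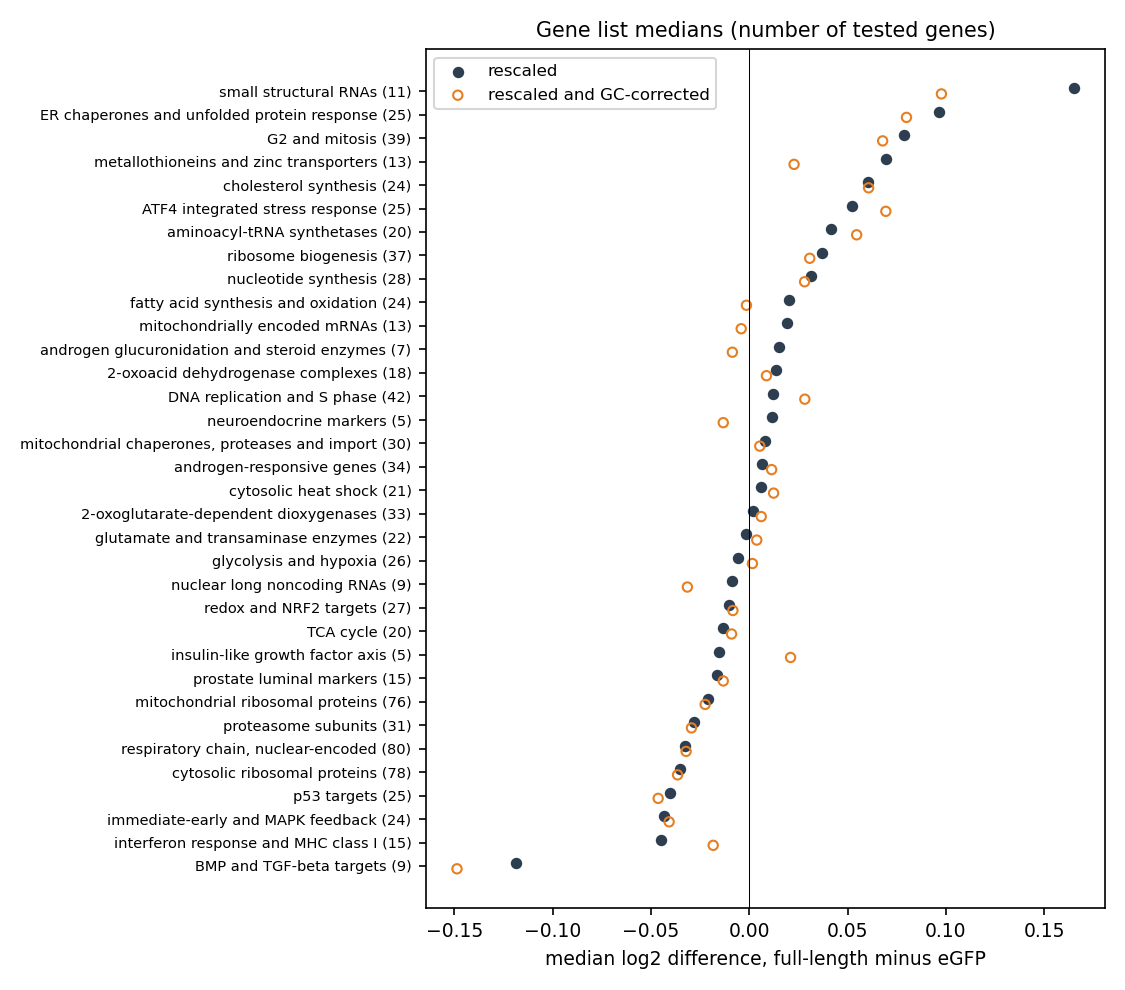
Median log2 difference, full-length minus eGFP, of each gene list with tested genes (number in brackets; lists of 1 gene left out), after rescaling (filled) and after rescaling and GC correction (open). Apart from the small structural RNAs and the BMP and TGF-beta targets, the rescaled medians lie within 0.10 of 0, against 0.00 over all genes.

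RPPH1, the RNA of the tRNA-processing enzyme RNase P, was at 4.23, 4.40 and 3.91 TPM with eGFP and at 8.41, 7.10 and 7.62 TPM with full-length OGDHL. All full-length libraries were higher, by 0.75 (SE 0.06, limma adjusted p = 0.0731, and 0.115 as deposited). Its values rest on 37 to 91 estimated reads per library, and over 29 settings the adjusted p ran from 0.0299 to 0.889. LINC00161, a long noncoding RNA, was at 72.1, 69.1 and 59.8 TPM against 49.6, 49.4 and 53.8 TPM, a difference of -0.39 (adjusted p = 0.0731; 0.0233 to 1 over the settings). Of the 12 genes with the largest difference in each direction under the naming rule, those on the higher side besides OGDHL were small or structural RNAs (RPPH1, RNU6-9, SNORD104, and the mitochondrial tRNA genes MT-TQ, MT-TE and MT-TY) or pseudogenes. RNU6-9, a U6 gene, was at 0.123, 0.213 and near 0 TPM with eGFP and at 5.22, 1.52 and 7.42 TPM with full-length OGDHL. It had at most 28 estimated reads in a library and passed the filter only through libraries with OGDHL, and its adjusted p was 0.274. RN7SK, a small nuclear RNA that restrains transcription elongation, was lower in all 3 full-length libraries (43.8, 31.0 and 32.8 TPM against 47.5, 60.5 and 52.7 TPM; -0.58, SE 0.17). These RNAs lack the poly(A) tail that the library kit selects for, and MT-TQ was lowest in eGFP replicate 3, at 39.1 TPM against 77.6 to 125 TPM in the other libraries. Mapping to pseudogenes is uncertain where they resemble their parent genes. The list of 11 small structural RNAs held 2 genes higher, RNU6-9 among them, and 1 lower at an unadjusted p under 0.05, with a median of 0.17. The 9 nuclear long noncoding RNAs held 1 lower, LINC00161.

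The differences varied with the GC content of the transcripts. Over 8826 of 8858 tested protein-coding genes with a GC value (99.6%), the rescaled difference and GC content had a Spearman correlation of -0.62, a description across genes, which share the same 6 libraries. The median difference was 0.06 in the fifth of genes with the lowest GC, then 0.03, -0.00 and -0.03, and -0.06 in the fifth with the highest. The libraries of a group did not share 1 trend: the correlation with GC was -0.32, 0.57 and 0.66 in eGFP replicates 1, 2 and 3, and -0.28, 0.02 and -0.63 in full-length replicates 1, 2 and 3. Full-length replicate 3 and eGFP replicate 3 stood farthest apart.

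**Figure D5:**
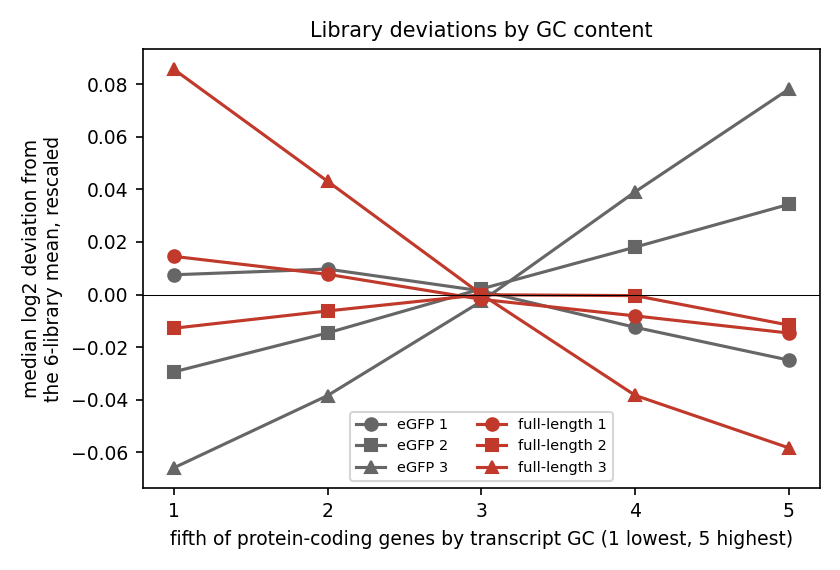
Median log2 deviation of each library from the 6-library mean, after rescaling, in 5 equal groups of protein-coding genes by transcript GC content (1 lowest, 5 highest). Full-length replicate 3 runs from 0.09 to -0.06 and eGFP replicate 3 from -0.07 to 0.08, in opposite directions.

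With each library's trend on GC removed, an alternative chosen after seeing the data, 570 genes were higher (4.31%) and 666 lower (5.03%) at an unadjusted p under 0.05, and 5 genes were called. These were OGDHL and RPPH1, higher, and IGFBP3, LINC00161 and AGR2, lower. AGR2, a disulfide isomerase of the secretory pathway, was chosen after its values were seen. It was at 2.06, 1.94 and 1.66 TPM with eGFP and at 1.27, 1.17 and 1.33 TPM with full-length OGDHL, with no overlap. Its difference was -0.39 after the correction (limma adjusted p = 0.0370). The list medians mostly changed little: 0.08 for the endoplasmic reticulum genes (13 higher and 0 lower of 25), 0.07 for G2 and mitosis (14 higher and 0 lower of 39), 0.07 for ATF4 targets (8 and 0 of 25), -0.05 for p53 targets (0 and 7 of 25) and -0.15 for BMP and TGF-beta targets (0 and 6 of 9). The median GC of the endoplasmic reticulum list was 45.8% and that of G2 and mitosis genes 42.6%, against 51.0% for the BMP and TGF-beta targets. The source of the GC trends was not tested.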

How the data were processed

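Messenger RNA from 16D cells was enriched, fragmented and read as pairs of 50 bases with a strand-keeping kit, per the labels' protocols. The authors deposited TPM values per gene. The aligner STAR and the build GRCh38 come from the submitters' processing notes. Which quantifier and annotation release they used is not given in the sources used here. The length column equals the genomic span, introns included, and TPM times span fell within 0.01 of whole multiples of 1 step per library for 73.4% to 75.0% of values under 20 reads in the 6 libraries, so levels of genes with long introns are understated and are not compared between genes. Estimated reads and depth come from these steps.

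Values were analysed as log2(TPM + 1), so differences of genes near 1 TPM are smaller than the TPM ratios. The linear model was fitted in limma 3.58.1 (R 4.3.3), with the eBayes trend, 3 against 3 libraries, 4 residual degrees of freedom, two-sided p-values and Benjamini-Hochberg adjustment over all genes tested; a call is an adjusted p under 0.05. The code was tested on simulated data. Transcript GC values came from the longest GENCODE transcript of each gene (GRCh38), and promoters from RefSeq in GRCh38.p14; plots used matplotlib 3.10.9 and pandas 2.3.3 was also used.

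The comparison, the 37 gene lists and the genes in them were chosen with earlier results of these data known. Genes named by rule were OGDHL and its complexes, every call, the 12 in each direction with the largest difference among those with no overlap of libraries, an unadjusted p under 0.05 on both scales and 2 TPM or more as the higher group's mean (278 lower and 65 higher genes met this), the 4 list members with the smallest unadjusted p, and KLK3, TMPRSS2, FKBP5, MKI67, ENO2 and MALAT1. Other list members are named from their list's values, and some genes are not reported here. Alternatives changed the pseudocount, filter, scaling, replicate block, libraries in the fit, variance model, fold minimum and values analysed (limma-voom on estimated reads), and left out each library. The GC correction (loess, span 0.3) was added after seeing the data.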

Additional observations from a re-analysis of the deposited data

Results flagged for a closer look

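OGDHL was also high in the 3 libraries of the series that this comparison leaves out, those of cells given OGDHL without its mitochondrial targeting sequence. Its mean there was 125 TPM, with 76.1, 175 and 124 TPM in replicates 1, 2 and 3, against at most 1.26 TPM in an eGFP library. It is given because these data lie outside the comparison, and it was not tested here.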

How the results depend on the processing

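OGDHL rose in every setting run, with a log2 difference of 5.15 to 7.49 and an adjusted p of 5.35e-08 to 0.01002. The count of 1 called gene became 16 with no filter (36416 genes, many near 0 TPM), 2 with a mean TPM of at least 5 or after rescaling, 4 in all 9 libraries after rescaling, 18 by limma-voom on estimated reads (17 rescaled), and 5 after the GC correction, which was chosen after seeing the data. Leaving out each library gave 1 to 2 genes; RNU6-9 joined without full-length replicate 2. It stayed at 1 with another pseudocount, robust or untrended variance, a fold minimum of 1.2, all 9 libraries as deposited, or OGDHL and mitochondrial genes out of the total.

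With the replicate number as a replicate block the count was 1, also after rescaling, and OGDHL differed by 6.62 (adjusted p = 6.92e-05, or 0.00228 rescaled). Pairing by number was not seen: as deposited, deviations of same-numbered libraries correlated at -0.07, -0.02 and -0.34, and no library correlated best with its own number. These deviations also carry each library's scale and GC trend, so they cannot show if same-numbered libraries shared a culture.

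Of 168 named genes besides OGDHL, 146 kept 1 direction in all 28 alternatives and 10 were called in at least 1. Of 34 gene list medians, 11 kept 1 direction, among them the endoplasmic reticulum, G2 and mitosis, ATF4, cholesterol, p53, MAPK feedback and BMP lists. The others were the nuclear-encoded respiratory chain, cytosolic ribosomal protein, metallothionein and zinc transporter, and small structural RNA lists. A constant direction thus also came with small medians, such as -0.069 to -0.003 for the respiratory chain and -0.078 to -0.007 for cytosolic ribosomal proteins. With 3 libraries per group and differences mostly under 0.5, a gene that misses the threshold is not shown to be level.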

Other observations

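A set of multi-copy genes expressed at the cleavage stage of the embryo, several of them known as targets of the transcription factor DUX4, was lower with full-length OGDHL. They were noticed in the data, and no test is given for the set. The 8 families (H3Y, MBD3L, TRIM43, TRIM49, PRAMEF, RFPL4, SSU72L and TAF11L) have 47 genes in the table, of which 21 were tested, and all 21 had a negative rescaled difference, with a median of -0.36. Members near 1 TPM can pass the filter through their higher group, and for these the direction counts for nothing. The 2 TRIM43 genes summed to 2.46, 2.54 and 2.59 TPM with eGFP and to 1.52, 1.86 and 1.95 TPM with full-length OGDHL. The groups did not overlap for 17 of the 21, all lower. These counts and the median still include members that passed the filter through their higher group. Over all genes tested 9.13% were lower without overlap. Because the families were picked after their values were seen, that share does not test them. Summed over the 8 families, the level was 68.2, 68.5 and 72.8 TPM with eGFP and 46.9, 44.3 and 53.1 TPM with full-length OGDHL, so all 3 full-length libraries lay below the controls. H3Y1, a primate histone H3 variant gene, was at 7.10, 7.21 and 6.52 TPM with eGFP and at 4.20, 4.65 and 4.74 TPM with full-length OGDHL (-0.52, limma adjusted p = 0.0731, and 0.230 as deposited). SSU72L4 was at 11.4, 10.8 and 12.1 TPM against 6.96, 5.93 and 8.94 TPM. None of the 21 genes was called. The members are near-identical copies, so reads cannot be placed on one with certainty, and genes of a family are not independent of each other. In the libraries with OGDHL lacking its targeting sequence, which were set against the same controls, the sum was 43.6, 60.7 and 58.1 TPM.

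Replication-dependent histone genes were also mostly lower. Of 33 tested genes of the H2A, H2B, H3 and H4 classes, 25 had a negative rescaled difference, and the groups did not overlap for 8 lower genes and 1 higher gene, with a median of -0.09. Over all genes tested, 9.13% were lower and 8.77% higher without overlap. The histone classes were also noticed in the data, so these shares do not test them. H2BC21 was at 149.5, 142 and 124 TPM with eGFP and at 115, 111 and 121 TPM with full-length OGDHL (-0.26, limma adjusted p = 0.0956), and H2BC12 at 131, 127 and 119 TPM against 102, 98.8 and 113 TPM (-0.27, adjusted p = 0.140). Most replication-dependent histone mRNAs lack a poly(A) tail, and these data do not show if those of H2BC21 and H2BC12 do. Whether yield after enrichment differed between libraries was not tested for any of these genes.

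GPER1, a membrane receptor that responds to oestrogen, and SAMD11, a chromatin-associated gene, were called by limma-voom on estimated reads and not on log2(TPM + 1). GPER1 was at 1.55, 1.51 and 1.32 TPM with eGFP and at 0.890, 0.897 and 0.941 TPM with full-length OGDHL, and the groups did not overlap. Within this comparison it reached 1 TPM only in its higher group, so its lack of overlap counts for nothing here. SAMD11 was at 4.16, 4.45 and 4.09 TPM against 3.27, 2.98 and 3.25 TPM. Both were chosen after their values were seen. SAMD11 was called as deposited only (adjusted p = 0.0343).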
